A study of Arabidopsis thaliana with 8 samples.

Results

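The transcripts of Arabidopsis thaliana Columbia-0 were compared between the whole above-ground part of 21-day-old plants (2 arrays, called the aerial part here) and mature leaves of plants of the same age (2 arrays). The comparison rests on these 4 arrays of the 8 in the series. Mature leaves were the 3 oldest leaves without the cotyledons. The plants of all groups were unmodified Columbia-0, stratified for 3 days at 4 °C and then raised on plates in long days (16 h of light) at 22 °C. The remaining 4 arrays, of young leaves (the 3 newest leaves at 21 days) and of 2-day-old whole plants, entered the fit, and young leaves are quoted only beside results of the main comparison. The 2 samples of a group are labelled as biological replicates, without a statement of how many plants each pooled. Both aerial arrays lay on 1 slide and both mature-leaf arrays on another slide scanned in another session, so tissue and slide cannot be told apart. All non-control probes entered the comparison, reduced to 1 probe per locus.

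A shoot at this age is a mixture of organs of different ages. The apical meristem produces leaf primordia, whose cells first divide, then expand and differentiate, with the youngest tissue at the leaf base and the oldest at the tip. KNOX transcription factors keep meristem cells undifferentiated, and the NAC factors of the CUC family mark the borders between organs. Once a leaf is full-grown it exports sugar, stores defence compounds and, with age, starts to break down chlorophyll and to send nitrogen to growing organs. In a bulk sample, fewer cells of a type and less RNA per cell cannot be told apart, and the aerial part itself contains mature leaves.

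Of 20617 genes tested, 6486 (31.5%) were higher and 5940 (28.8%) were lower in the aerial part at an adjusted p under 0.05 (limma, Benjamini-Hochberg). The sizes were unequal. Among called genes, 3292 (16.0%) were at least 2-fold higher and 925 (4.49%) at least 2-fold lower. At least 8-fold differences numbered 765 in the direction of the aerial part and 2 in the direction of mature leaves. The scanner software marks spots that are well above background, and a gene is called measured here when its spot had this mark in both replicates of the aerial part or of mature leaves. Of the 19219 measured genes, 6289 (32.7%) were higher and 5544 (28.8%) lower, which is the background for the gene lists. Detection was uneven too: 1138 genes were well above background on both aerial arrays and on neither mature-leaf array, and 24 showed the reverse. The detection limits differed as well. In log2 relative to the array's 75th percentile, the lowest signal so marked was -7.05 and -7.00 on the aerial arrays. On the mature-leaf arrays it was -6.37 and -6.45. How far this shaped these counts, or those of list members measured in the aerial part alone, was not tested.

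**Figure D1:**
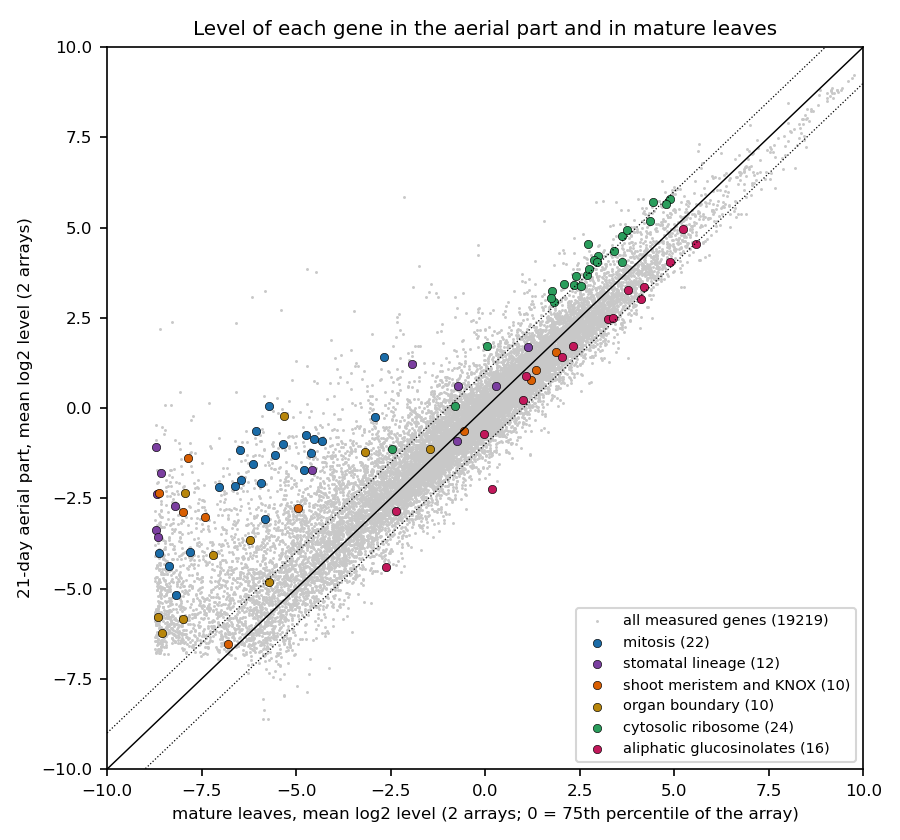
Mean log2 level of each measured gene in mature leaves (x axis) and in the aerial part (y axis), 2 arrays each, where 0 is the 75th percentile of an array's probes and the dotted lines mark a 2-fold difference. Mitosis, stomatal and KNOX genes lie far above the diagonal at low mature-leaf levels, cytosolic ribosome genes lie just above it at high levels and aliphatic glucosinolate genes lie below it.

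These counts depend on what the arrays are scaled to. The 75th percentile probe was dimmer in mature leaves (8.94 and 9.02 on the log2 scale) than in the aerial part (9.75 and 9.65), whereas the median spike-in probe stood at 11.47 and 11.44 against 11.39 and 11.43. The 50 brightest genes, led by photosystem and antenna genes, took 27.5% and 27.2% of the summed signal in mature leaves and 22.9% and 23.4% in the aerial part. Scaling to the spike-ins moved the median difference of all genes by 0.77 and gave 14959 higher and 461 lower genes. Scaling to the median probe moved it by -0.38 and gave 4182 higher and 11002 lower. Background correction with normexp moved it by -0.14 and gave 4827 higher and 9137 lower. All directions below are relative to the 75th percentile, and lists with a quoted median that turned sign under another scaling are named as such. The medians of the clock and cold-regulated lists, not quoted below, turned from negative to 0.49 and 0.73 with spike-in scaling. That of the root markers turned from 0.89 to -0.27 with normexp.

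**Figure D2:**
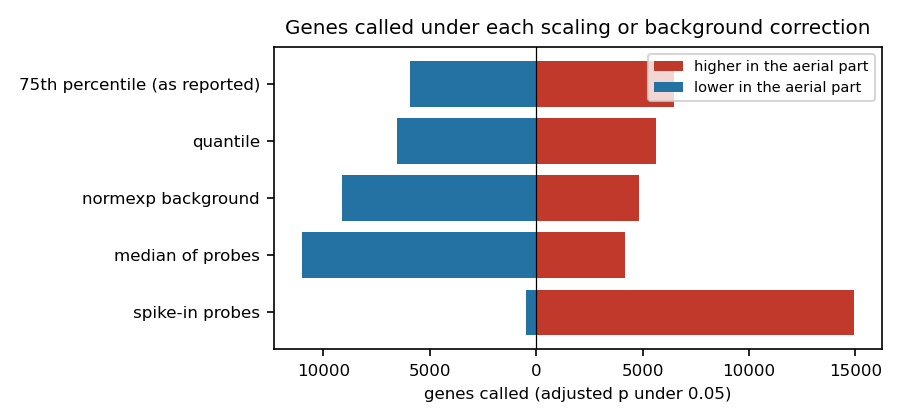
Number of genes called higher (red, to the right) and lower (blue, to the left) in the aerial part under the 75th percentile scaling and under quantile, normexp, median and spike-in settings. The split ran from 14959 higher and 461 lower with spike-ins to 4182 higher and 11002 lower with the median.

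Levels below are log2 of the processed signal minus the array's 75th percentile, and differences are the aerial part minus mature leaves on that scale. The ± gives the standard error of the fit (n = 2 arrays per group). Its variance, and that of the p-values, is pooled over all 8 arrays, so ± is not the spread of the compared arrays alone. For MAM3 (± 0.51) the aerial (-2.25 and -2.24) and mature-leaf replicates (0.19 and 0.18) lay close together. Its young-leaf replicates, not well above background, lay far apart (-8.93 and -7.18). For a gene with no such mark in either replicate of 1 tissue, a lower bound of the fold is given. It sets the bright group's mean against the higher of the dim probe and the lowest signal well above background on each array. AS2, CYCB1;2, TPX2, ARR15, DFR, CUC1, CUC3 and AG were each well above background on 1 of the 2 mature-leaf arrays, so their differences rest partly on dim spots. List members measured in only 1 tissue entered through the tissue where they were bright, so counts and medians of lists are descriptions.

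The largest differences among genes measured on all 4 arrays were all in the direction of the aerial part. PDF1 (AT2G42840), an L1-layer gene of the epidermis, stood at 3.03 and 3.09 in the aerial part and at -6.03 and -6.33 in mature leaves. The arrays did not overlap, and the difference was 9.24 ± 0.13 (limma adjusted p = 1.36e-06). Its mature-leaf levels lay just above the lowest signals well above background on those arrays (-6.37 and -6.45). The size of the PDF1 difference thus rests on dim mature-leaf spots. MLP423 (AT1G24020), of the major latex protein family, stood at 3.88 and 3.83 against -4.50 and -4.92, a difference of 8.57 ± 0.19. LTP6 (AT3G08770), a lipid transfer protein, stood at 3.76 and 3.77 against -4.24 and -4.69, a difference of 8.23 ± 0.18. All 3 were also high in young leaves, where PDF1 stood at 3.66 and 3.42 and LTP6 at 3.45 and 3.07. GER3 (AT5G20630), a germin-like protein, differed by 7.99 ± 0.81, with a wide spread in mature leaves (-3.39 and -0.91). LTP2 (AT2G38530), a further lipid transfer protein, differed by 5.96 ± 0.38 and was higher than in young leaves as well (difference 2.87). The other 5 of the 10 largest were AT4G29030, AT2G33850, AT3G28500, AT1G05835 and AT4G11320, with differences of 9.08 ± 0.12, 8.13 ± 0.33, 6.29 ± 0.25, 6.18 ± 0.13 and 6.17 ± 0.29.

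Among genes measured in the aerial part and on neither mature-leaf array, the lipase gene LTL1 (AT3G04290) stood at 2.42 and 2.34 against -8.26 and -8.32, at least 442-fold higher. AT4G22490 was at least 390-fold higher, GH9B13 (AT4G02290), a family 9 glycosyl hydrolase, at least 115-fold, AT3G13175 at least 113-fold and the jacalin-type lectin gene JAL22 (AT2G39310) at least 93.3-fold. In the reverse direction the bounds were small. The 5 largest ran from 3.28-fold for MYB2 (AT2G47190), a transcription factor of drought and salt responses, to 7.38-fold for AT5G40310.

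The shoot meristem list holds KNOX genes, their BELL-type partners and the CLAVATA pathway. Of its 12 members, 10 were measured, 5 were higher, 1 was lower and 4 were not called, with a median difference of 1.22 (1.05 with unmeasured levels at their bound). STM (AT1G62360), the KNOX factor that maintains the meristem, stood at -1.40 and -1.39 in the aerial part and at -8.42 and -7.32 in mature leaves. It was at least 32.4-fold higher (limma adjusted p = 3.38e-05), and it was not well above background in young leaves either (-8.99 and -8.93). KNAT1 (AT4G08150), which acts in the meristem and stem, stood at -2.44 and -2.29 against -8.59 and -8.65, at least 16.5-fold higher. KNAT6 (AT1G23380) was at least 11.5-fold and KNAT2 (AT1G70510) at least 10.5-fold higher. The BELL gene PNF (AT2G27990) differed by 2.18 ± 0.13.

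Of the members that were not called, 3 were well above background on all 4 arrays. The receptor genes CLV1 (AT1G75820) and CLV2 (AT1G65380) differed by -0.32 ± 0.14 (adjusted p = 0.0236 with the replicate number as a block in limma, which called CLV1) and -0.08 ± 0.07, and the BELL gene ATH1 (AT4G32980) by -0.30 ± 0.16. The fourth, DRN (AT1G12980), was dim, at -6.48 and -6.58 against -6.32 and -7.28. PNY (AT5G02030), a further BELL gene, was lower, at 0.74 and 0.81 against 1.27 and 1.13 (-0.42 ± 0.09), and turned to 0.34 with spike-in scaling. The peptide gene CLV3 was not well above background on any of the 4 arrays, and WUS, the factor of the organising centre, was so on 1 of the 2 aerial arrays and on no mature-leaf array.

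All 10 of the 10 measured organ-boundary genes were higher, with a median of 2.44 (1.44 at the bounds), and 5 of them were measured in the aerial part alone. With normexp, 5 were higher and 4 lower. LSH4 (AT3G23290), expressed at shoot organ borders, stood at -0.17 and -0.29 against -5.34 and -5.30, a difference of 5.09 ± 0.22. LOB (AT5G63090), the founding member of the LBD factors, stood at -2.28 and -2.42 against -7.53 and -8.37, at least 16.7-fold higher. The arrays of the groups did not overlap for either gene. Of the NAC factors that separate organs, CUC2 (AT5G53950) was at least 5.01-fold higher, CUC3 (AT1G76420) differed by 2.56 ± 0.21 and CUC1 (AT3G15170) by 0.91 ± 0.32. The call of CUC1 was lost without either aerial replicate and without mature-leaf replicate 1 (differences from 0.40 to 1.43), and its difference was -0.36 with normexp. Against young leaves, a comparison that shares the aerial arrays and in which 19.9% of genes were called higher and 17.7% lower, LSH4 differed by 4.47, and LOB, which was not well above background on either young-leaf array, was at least 24.1-fold higher. LAS, which acts in axillary meristems, was not well above background on any of the 4 arrays.

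Floral genes were measured in the aerial part although the label names no flowers. Of 10 floral identity genes, 9 were measured, 6 were higher and 1 was lower, with a median of 2.18. AP1 (AT1G69120), which specifies floral meristems and sepals, stood at -2.26 and -1.88 against -8.66 and -8.72, at least 20.2-fold higher. The petal and stamen gene AP3 (AT3G54340) stood at -2.90 and -2.58 against -7.12 and -8.50, at least 12.7-fold higher, and its partner PI (AT5G20240) differed by 2.76 ± 0.17. Among the SEPALLATA genes, cofactors of all floral organs, SEP2 (AT3G02310) differed by 2.98 ± 0.27 and SEP1 (AT5G15800) by 2.18 ± 0.19. SEP3 (AT1G24260) did not pass the test (-0.09 ± 0.26), and SEP4 (AT2G03710) was lower (-0.71 ± 0.13), except with spike-in scaling (0.0589). AG (AT4G18960), the stamen and carpel gene, stood at -4.93 and -4.47 against -6.13 and -6.46 and was not called (1.60 ± 0.60). SEP1 stood at -0.27 and -0.26 in young leaves and at -1.01 and -0.63 in the aerial part, a difference that was not called (-0.56).

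Markers of anthers, pollen and carpels were dim. Of 10 such genes, 6 were measured, all on both aerial arrays, and 4 were higher, with a median of 2.75 that fell to 0.92 at the bounds and turned to -0.20 with normexp. The summed linear level of the 7 tested markers was 0.153 and 0.257 of the 75th percentile signal on the aerial arrays and 0.0422 and 0.0347 on the mature-leaf arrays. On the young-leaf arrays it was 0.0293 and 0.108. CRC (AT1G69180), of the carpel, stood at -5.83 and -5.60 against -8.55 and -8.62, at least 1.62-fold higher, but turned to -0.27 with normexp, where it was called lower. Its bound was the smallest among the called members that have one, and the largest was 4.79-fold. With normexp, 0 of these markers were higher and 2 were lower.

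Genes of flowering time went both ways: of 15 measured, 7 were higher and 4 lower, with a median of -0.18 (0.58 with spike-in scaling). FT (AT1G65480), the mobile flowering signal made in leaf veins, stood at -4.54 and -4.09 in the aerial part and at -2.41 and -2.46 in mature leaves. It was lower by a difference of -1.88 ± 0.32 (limma adjusted p = 0.00351), and it was not well above background in young leaves. SOC1 (AT2G45660), which acts downstream of FT, stood at 3.84 and 3.93 against 4.51 and 4.63 (-0.69 ± 0.09, but 0.0768 with spike-in scaling). FLC (AT5G10140), the repressor of both, was higher, at -3.21 and -3.18 against -4.75 and -5.00 (1.68 ± 0.10). TFL1 (AT5G03840), which keeps the inflorescence tip indeterminate, was at least 10.9-fold higher, and the phase-change factors SPL15 (AT3G57920) and SPL3 (AT2G33810) differed by 2.43 ± 0.17 and 1.94 ± 0.10.

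**Figure D3:**
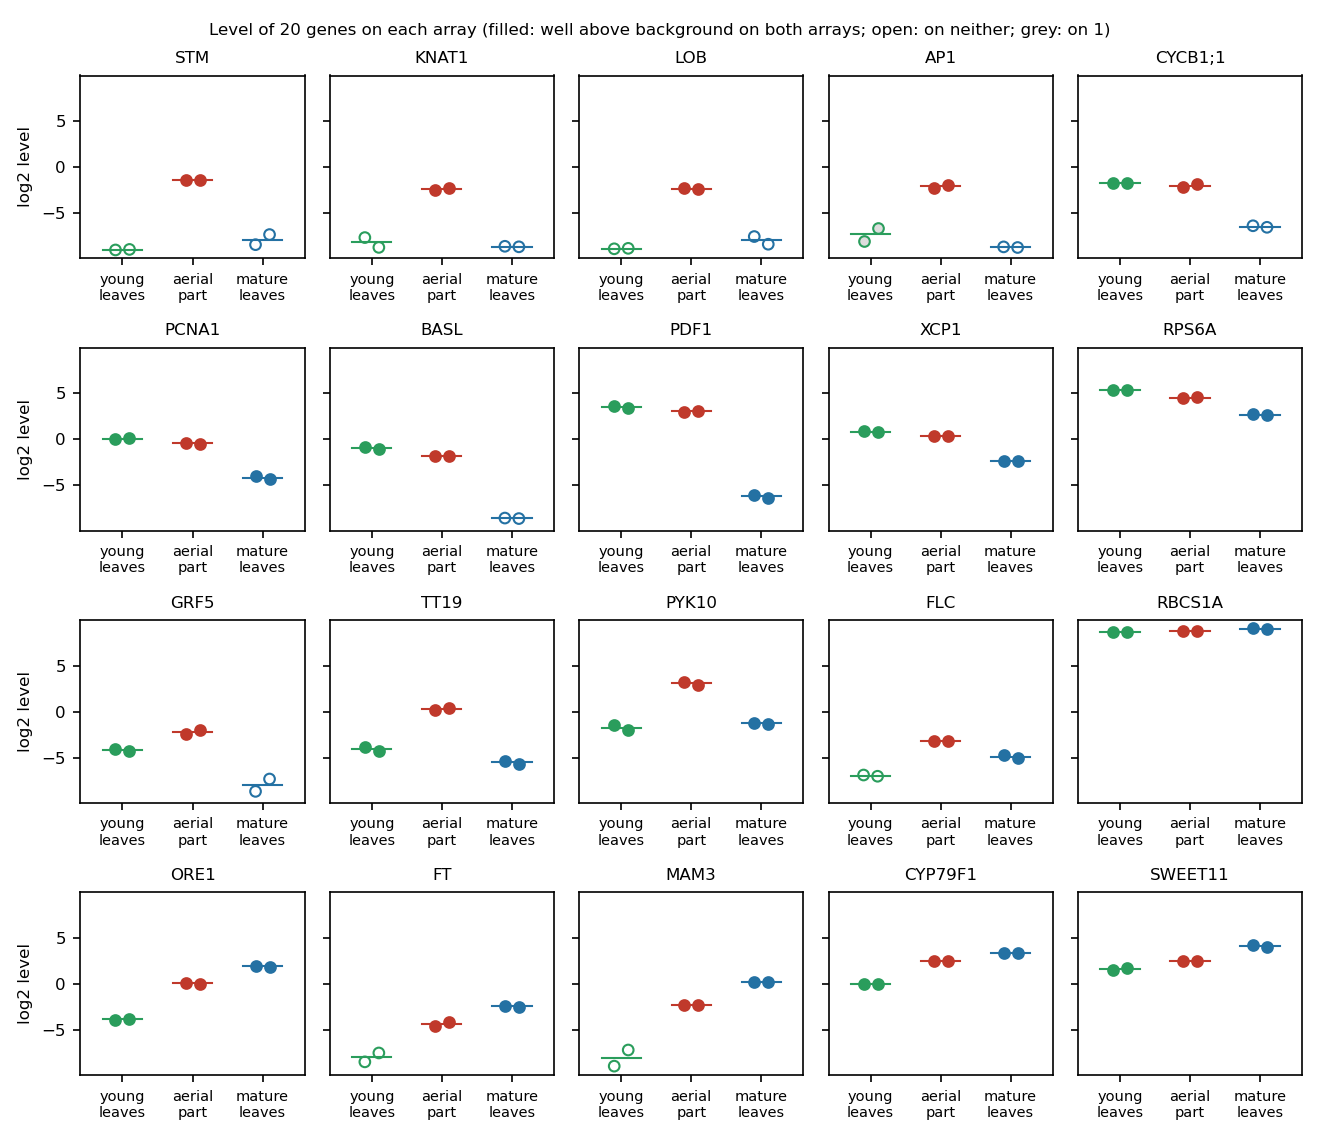
Log2 level of 20 genes on each array of young leaves, the aerial part and mature leaves (y axis; 0 is the array's 75th percentile; bars are means of 2 arrays). STM, KNAT1, LOB and AP1 were well above background on both arrays in the aerial part alone, CYCB1;1, PCNA1, BASL and XCP1 were high in young leaves as well, and ORE1, FT, MAM3 and CYP79F1 were highest in mature leaves.

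Cell division genes were higher as a group. All 22 measured mitosis genes were higher, with a median of 4.04, from 2.65 to 5.77. With normexp the median was 1.72, and 19 were higher and 1 lower. HIK (AT1G18370), a kinesin of cytokinesis, stood at -0.11 and 0.23 against -5.88 and -5.54, a difference of 5.77 ± 0.16. The G2/M cyclin gene CYCB1;1 (AT4G37490) stood at -2.19 and -1.82 against -6.36 and -6.53, at least 21.2-fold higher. CYCB1;2 (AT5G06150) differed by 5.42 ± 0.24, and TPX2 (AT1G03780), a spindle protein, by 5.31 ± 0.19. Of 15 replication genes, 14 were higher and 1 was not called, with a median of 2.86. PCNA1 (AT1G07370), the sliding clamp of DNA polymerase, stood at -0.42 and -0.45 against -3.96 and -4.34 (3.71 ± 0.13), and the helicase genes MCM2 (AT1G44900), MCM7 (AT4G02060) and CDC45 (AT3G25100) differed by 3.31 ± 0.09, 3.14 ± 0.08 and 3.28 ± 0.09. Young leaves held these transcripts too, and the median differences of the aerial part from them were -0.37 and -0.56.

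Regulators of leaf growth and polarity were higher for 13 of 19 genes and lower for 2, with a median of 0.53. GRF5 (AT3G13960) and GRF9 (AT2G45480), growth-regulating factors of dividing leaf cells, were each at least 18.6-fold higher. GRF5 stood at -2.39 and -1.99 in the aerial part, at -4.07 and -4.28 in young leaves and at -8.66 and -7.31 in mature leaves. ANT (AT4G37750), which prolongs organ growth, differed by 2.77 ± 0.08, and the polarity gene AS2 (AT1G65620) by 2.12 ± 0.15. Of the 8 CIN-type TCP factors, which end leaf cell division, 4 were lower and 1 was higher, with a median of -0.30 (0.47 with spike-in scaling). TCP13 (AT3G02150) was lower, at -0.54 and -0.93 against 0.54 and 0.29 (-1.15 ± 0.18). TCP4 (AT3G15030) was higher, at 2.67 and 2.98 against 1.62 and 1.81 (1.11 ± 0.15). The sign was thus not shared within the family.

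Genes of wall loosening and expansion were higher for 14 and lower for 2 of 22 measured, with a median of 1.11. XTH9 (AT4G03210), a xyloglucan-modifying enzyme, stood at 3.74 and 4.10 against -1.75 and -1.78, a difference of 5.68 ± 0.14. XTH8 (AT1G11545) differed by 3.89 ± 0.14 and the expansin gene EXPA15 (AT2G03090) by 3.43 ± 0.08. The median difference of the list between the aerial part and young leaves was -0.10.

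The stomatal lineage had the highest median of the 36 lists, 4.12 (2.94 at the bounds, where that of mitosis, 3.93, was higher), with 11 of 12 genes higher and 6 measured in the aerial part alone. With normexp its median was 1.06, below that of mitosis (1.72), and 11 genes were still higher. The lineage runs from asymmetric entry divisions under SPCH, through MUTE, to the final guard-cell division under FAMA. SPCH (AT5G53210) stood at -3.37 and -3.40 against -8.68 and -8.75, at least 8.13-fold higher. MUTE (AT3G06120) stood at -2.69 and -2.72 against -8.03 and -8.36, at least 13-fold higher. FAMA (AT3G24140) stood at -0.97 and -0.84 against -0.88 and -0.64 and was not called (-0.15 ± 0.10), so the last regulator was well above background on all 4 arrays while both earlier ones were at background in mature leaves. The polarity genes BASL (AT5G60880) and POLAR (AT4G31805) were at least 24.2-fold and 16.2-fold higher, and the protease gene SDD1 (AT1G04110) at least 40.4-fold. Among the signals, EPF2 (AT1G34245) was at least 7.19-fold higher, EPF1 (AT2G20875) differed by 2.86 ± 0.22 and EPFL9 (AT4G12970) by 1.32 ± 0.18, and the receptor gene TMM (AT1G80080) by 3.15 ± 0.09.

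Genes of finished guard cells were measured in both tissues. Of 5, 0 were higher, 2 were lower and 3 were not called, with a median of -0.29 (0.48 with spike-in scaling). The potassium channel gene KAT1 (AT5G46240) stood at -0.61 and -0.66 against -0.18 and -0.20 (-0.44 ± 0.09, 0.32 with spike-in scaling). MYB60 (AT1G08810), a guard-cell factor, stood at -0.51 and -0.48 against -0.60 and -0.57 and was not called (0.09 ± 0.09).

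Trichome initiation genes showed both patterns: 4 of 6 were higher and 1 was lower. GL1 (AT3G27920), the MYB factor that starts trichomes, was at least 13.9-fold higher, and GL2 (AT1G79840), a homeobox factor downstream of it, stood at -1.52 and -1.54 against -5.62 and -5.63 (4.10 ± 0.12). TTG1, their WD40 partner, was lower (-0.62 ± 0.09, 0.15 with spike-in scaling). Epidermis and cuticle genes were higher for 17 and lower for 1 of 21, with a median of 1.89. Besides PDF1 and the lipid transfer proteins, CER4 (AT4G33790), which makes wax alcohols, stood at -1.92 and -1.61 against -8.38 and -7.12, at least 25-fold higher.

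Secondary wall and xylem genes were higher for 17 of 19 measured, with a median of 1.76. XCP1 (AT4G35350), a cysteine protease of dying vessel cells, stood at 0.40 and 0.32 against -2.29 and -2.34 (2.68 ± 0.08). CESA7 (AT5G17420), a subunit of the secondary-wall cellulose synthase, stood at -1.84 and -1.73 against -3.51 and -3.52 (1.73 ± 0.09), and LAC4 (AT2G38080), a laccase of lignin formation, differed by 2.05 ± 0.06. CESA7 stood at -1.47 and -1.44 in young leaves, and the median difference of the list between the aerial part and young leaves was -0.34.

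Within the vascular list, cambium and phloem genes parted. The procambial genes WOX4 (AT1G46480) and PXY (AT5G61480) were higher, by 1.84 ± 0.17 and 0.78 ± 0.06. The phloem loading genes were lower. SUC2 (AT1G22710), the sucrose transporter of companion cells, stood at 2.47 and 2.38 against 3.74 and 3.53 (-1.21 ± 0.11). SWEET11 (AT3G48740), the sucrose exporter that feeds it, stood at 2.49 and 2.53 against 4.21 and 4.05 (-1.62 ± 0.12). The companion-cell gene PP2-A1 (AT4G19840) and the phloem factor APL (AT1G79430) differed by -1.14 ± 0.14 and -0.97 ± 0.09. In all, 6 of 11 genes were higher and 4 lower, so the list median of 0.39 describes neither set.

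**Figure D4:**
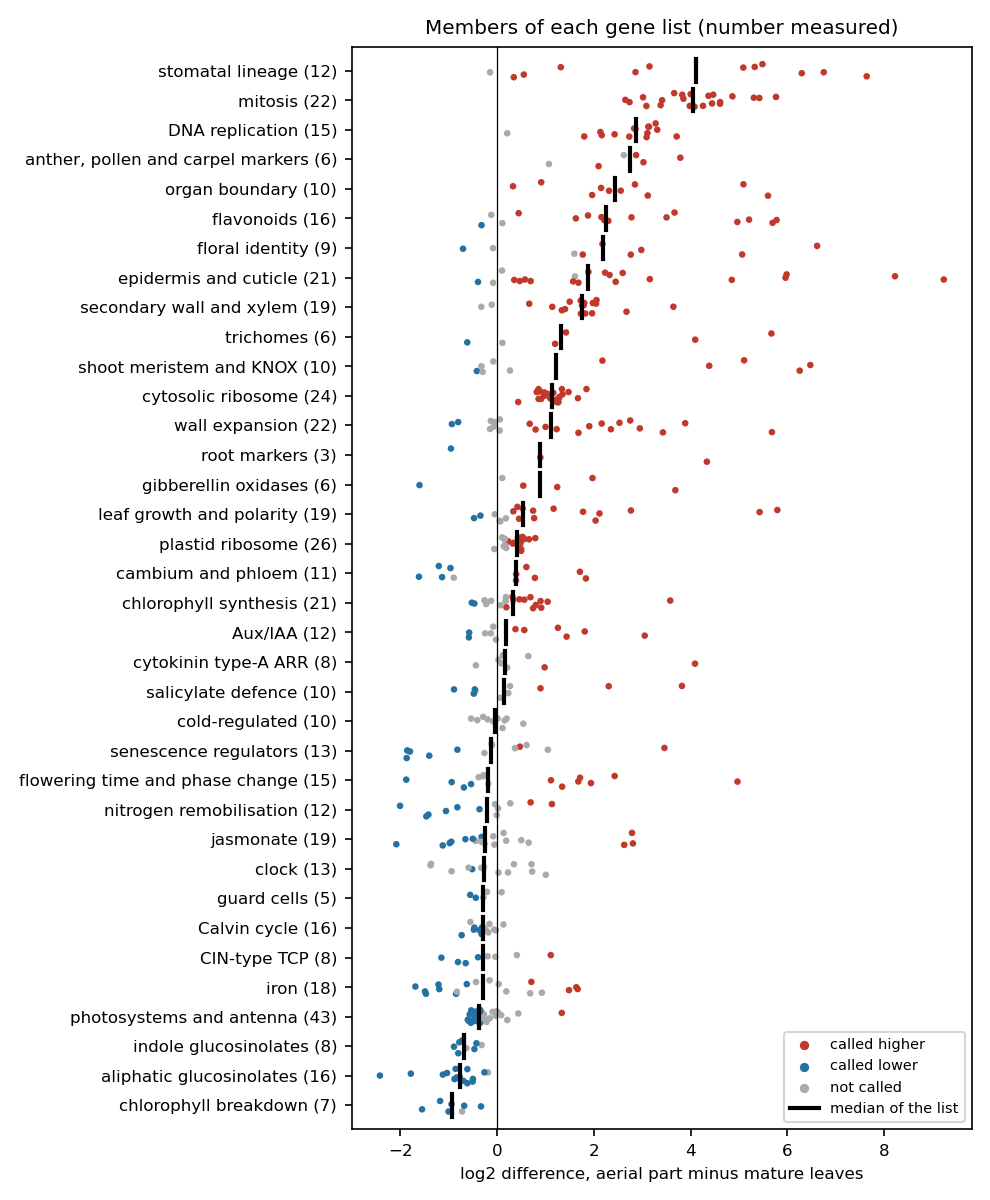
Log2 difference, aerial part minus mature leaves, of each measured member of the 36 gene lists (x axis), coloured by call, with a bar at the list median. Stomatal, mitosis and replication lists lie furthest right and chlorophyll breakdown and glucosinolate lists furthest left. With spike-in scaling all points move right by about 0.77, which takes the medians left of 0 to positive values for all but the chlorophyll breakdown and aliphatic glucosinolate lists.

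All 24 cytosolic ribosomal protein genes were higher, with a median of 1.13 and a range from 0.44 to 1.85. RPS6A (AT4G31700), a small-subunit protein, stood at 4.54 and 4.56 against 2.78 and 2.63 (1.85 ± 0.08). Young leaves stood above both, with RPS6A at 5.38 and 5.32. Plastid ribosomal protein genes differed less: 18 of 26 were higher, with a median of 0.42 that dropped to 0.04 with median scaling. Chlorophyll synthesis genes were higher for 12 and lower for 2 of 21, with a median of 0.32 (-0.06 with median scaling). The largest was PORA (AT5G54190), a light-dependent protochlorophyllide reductase, at 1.61 and 1.85 against -2.22 and -1.48 (3.58 ± 0.25).

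Differences in the photosynthetic apparatus were small. Of 43 photosystem and antenna genes, 28 were lower and 1 was higher, with a median of -0.38, which turned to 0.01 with quantile normalization and 0.38 with spike-in scaling. The only higher one was LHCB4.3 (AT2G40100), a minor antenna protein (1.34 ± 0.17). Of 16 Calvin cycle genes, 8 were lower and 0 higher, with a median of -0.29 (0.06 with quantile and 0.47 with spike-in scaling). RBCS1A (AT1G67090), a Rubisco small subunit, stood at 8.72 and 8.75 against 9.06 and 9.002 (-0.29 ± 0.08). Its call was lost without any 1 of the 4 arrays (differences from -0.32 to -0.26), another probe of it was called in the opposite direction, and it turned to 0.19 with quantile normalization and 0.47 with spike-in scaling. Rubisco small subunit and LHCB1 genes are near-identical copies, so their probes may share signal.

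Genes of leaf ageing were split. Of 7 chlorophyll breakdown genes, 6 were lower in the aerial part and 1 was not called, with a median of -0.94, negative also with spike-in scaling (-0.18). PPH (AT5G13800), which removes the phytol tail, stood at 2.23 and 2.17 against 3.35 and 3.41 (-1.18 ± 0.06). NYE2 (AT4G11910), a paralog of the stay-green gene, stood at -2.91 and -2.69 against -1.30 and -1.20 (-1.55 ± 0.09), and NYE1 (AT4G22920) and PAO (AT3G44880) differed by -1.01 ± 0.12 and -0.94 ± 0.10. Senescence regulators counted 5 lower and 2 higher of 13, with a median of -0.12 (0.65 with spike-in scaling). ORE1 (AT5G39610), a NAC factor that drives leaf senescence, stood at 0.06 and 0.05 in the aerial part, at 1.96 and 1.87 in mature leaves and at -3.88 and -3.83 in young leaves, a difference of -1.86 ± 0.10 (limma adjusted p = 4.14e-05). Its homolog ORS1 (AT3G29035) and the dark-inducible SEN1 (AT4G35770) differed by -1.80 ± 0.35 and -1.87 ± 0.18. WRKY53 (AT4G23810), an early senescence factor, went the other way, at -3.19 and -3.23 against -7.02 and -6.31, at least 8.78-fold higher. The late senescence marker SAG12 was not tested, since its probes were at background on all 8 arrays.

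Nitrogen remobilisation genes counted 6 lower and 2 higher of 12, with a median of -0.20 (0.56 with spike-in scaling). The amino acid permease gene AAP4 (AT5G63850) stood at 1.41 and 1.13 against 3.50 and 3.07 (-2.01 ± 0.19), and AAP1 (AT1G58360) differed by -1.47 ± 0.15. GLN1;3 (AT3G17820), a cytosolic glutamine synthetase, was higher (1.13 ± 0.17).

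Glucosinolate genes were lower together. Glucosinolates are sulphur-rich defence compounds of the cabbage family, made from methionine (aliphatic) or tryptophan (indole). Of 16 aliphatic genes, 15 were lower and 1 was not called, with a median of -0.77 (-0.01 with spike-in scaling). MAM3 (AT5G23020), which elongates the methionine chain, stood at -2.25 and -2.24 against 0.19 and 0.18 (-2.43 ± 0.51). CYP79F1 (AT1G16410), the first enzyme of the core pathway, stood at 2.51 and 2.48 against 3.36 and 3.39 (-0.88 ± 0.09). CYP83A1 (AT4G13770), the next enzyme, differed by -1.04 ± 0.08. Young leaves held the lowest levels, with CYP79F1 at -0.04 and 0.04 and MAM3 not well above background (-8.93 and -7.18), so the aerial part lay between both leaf classes. Of 8 indole genes, 6 were lower, with a median of -0.68 (0.08 with spike-in scaling). CYP79B3 (AT2G22330), which makes indole-3-acetaldoxime from tryptophan, stood at 0.44 and 0.17 against 1.20 and 1.20 (-0.89 ± 0.11).

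**Figure D5:**
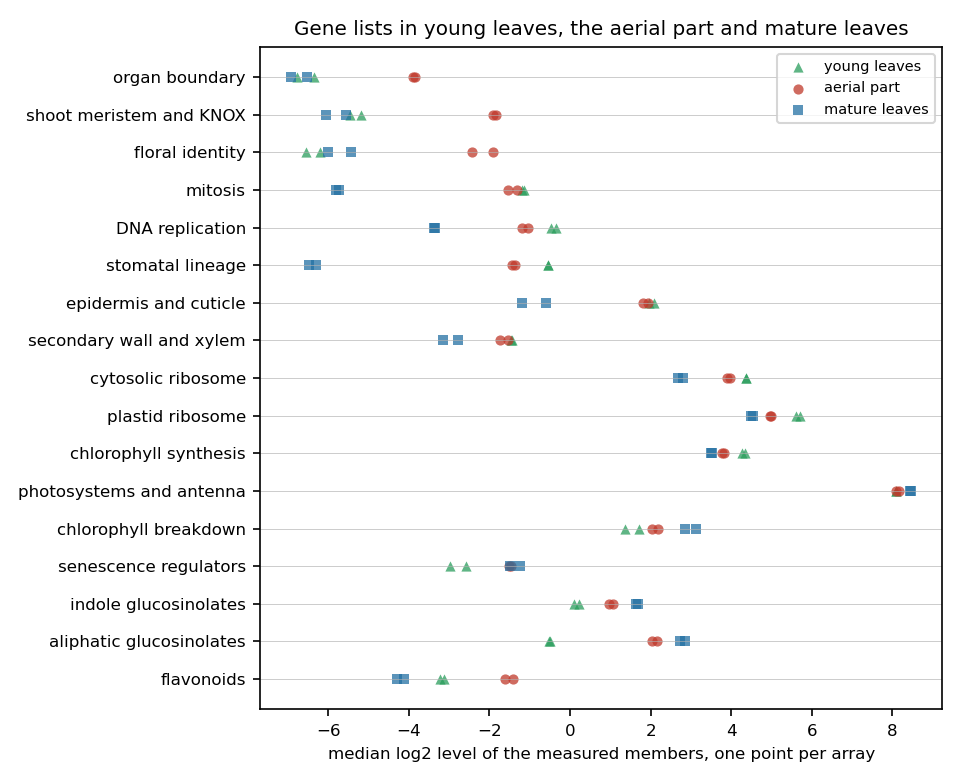
Median log2 level of the measured members of 17 gene lists (x axis), one point per array, in young leaves, the aerial part and mature leaves. Boundary, meristem and floral lists stood highest in the aerial part. Division and cytosolic ribosome lists stood nearer to young than to mature leaves, and the plastid ribosome list stood nearer to mature leaves. Chlorophyll breakdown and glucosinolate lists lay between both leaf classes. Levels of different lists are not compared with each other.

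Flavonoid genes were higher for 13 and lower for 1 of 16 measured, with a median of 2.26 (1.85 at the bounds). CHS (AT5G13930), the entry enzyme, stood at -0.48 and -0.80 against -6.29 and -6.38, at least 51.9-fold higher, and stood at 0.26 and -0.64 in young leaves. The late genes of the anthocyanin branch were low in both leaf classes. DFR (AT5G42800), a reductase, stood at -0.77 and -0.74 in the aerial part, at -6.75 and -5.18 in mature leaves and at -7.18 and -8.51 in young leaves. LDOX (AT4G22880), the next enzyme, stood at -3.66 and -3.51 against -8.68 and -8.43, at least 7.06-fold higher. TT19 (AT5G17220), a glutathione transferase for pigment transport, stood at 0.17 and 0.36 against -5.35 and -5.68 (5.78 ± 0.25), and at -3.83 and -4.24 in young leaves. These 3 genes were called higher than in both leaf classes. DFR and LDOX were not well above background on either young-leaf array, so against young leaves they were at least 72.6-fold and 10.2-fold higher, and TT19 differed by 4.30.

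Jasmonate genes counted 3 higher and 7 lower of 19, with a median of -0.26 (0.51 with spike-in scaling). The synthesis gene AOC1 (AT3G25760) was lower, at 0.81 and 0.63 against 2.88 and 2.73 (-2.09 ± 0.23). The responsive storage protein gene VSP2 (AT5G24770) was higher, at 5.74 and 5.75 against 3.00 and 3.24 (2.63 ± 0.17), and the repressor gene JAZ10 (AT5G13220) differed by 2.81 ± 0.18. Of 10 salicylate defence genes, 3 were higher and 3 lower, near the shares over all measured genes (32.7% and 28.8%). Their median of 0.15 turned negative with normexp, quantile and median scaling (-0.26, -0.32 and -0.23). PR5 (AT1G75040), a defence protein, differed by 2.31 ± 0.26, and PAD4 (AT3G52430), a regulator of salicylate accumulation, was lower (-0.89 ± 0.08). The marker PR1 was not tested, since its probe was at background on all 8 arrays.

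The cytokinin and auxin response lists had small medians, although single members differed by more than 2-fold. Of 8 type-A response regulators of cytokinin, 2 were higher and 0 lower, with a median of 0.16 (-0.22 with median scaling). ARR15 (AT1G74890) stood at -2.05 and -1.92 against -6.34 and -5.82 (4.09 ± 0.21), and ARR5 (AT3G48100) differed by 0.98 ± 0.11. Of 12 Aux/IAA repressors of auxin response, 6 were higher and 2 lower, with a median of 0.18 (negative with normexp and median scaling, -0.15 and -0.20). IAA19 (AT3G15540) differed by 1.81 ± 0.16. Of 6 measured gibberellin oxidase genes, 4 were higher and 1 was lower, with a median of 0.89. Gibberellin-inactivating GA2OX2 (AT1G30040) was at least 3.64-fold higher, while the synthesis gene GA20OX2 (AT5G51810) was lower, at -5.56 and -5.39 against -3.53 and -4.21 (-1.61 ± 0.22). Its paralog GA20OX1 (AT4G25420) was higher (1.24 ± 0.15).

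Iron genes counted 4 higher and 7 lower of 18, with a median of -0.30 (0.47 with spike-in scaling). YSL1 (AT4G24120), a transporter that moves iron out of leaves, stood at -2.68 and -2.31 against -0.84 and -0.77 (-1.69 ± 0.14). FER3 (AT3G56090), a ferritin, was higher, at -0.62 and -0.20 against -2.17 and -1.98 (1.66 ± 0.21), and BHLH100 (AT2G41240), a factor of the iron deficiency response, differed by 1.64 ± 0.25.

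None of the 10 cold-regulated genes was called in limma, and 0 of them had an unadjusted p under 0.05. The 2 replicates of each group lay far apart for this list, with a median replicate SD of 0.571 in the aerial part and 0.769 in mature leaves, against 0.0716 in the aerial part and 0.083 in mature leaves over all measured genes. RD29A (AT5G52310), a cold and drought marker, stood at 1.31 and 2.34 in the aerial part and at 1.13 and 2.69 in mature leaves, so the arrays of both groups overlapped. Clock genes shared this spread, with a median replicate SD of 0.831 in the aerial part and 0.664 in mature leaves. Of 13, 1 was called, the pseudo-response regulator gene PRR7 (AT5G02810) (-0.52 ± 0.14), whose call was lost without aerial replicate 1 and without mature-leaf replicate 2 (differences from -0.70 to -0.33). CCA1 (AT2G46830), a morning clock factor, stood at 1.14 and -0.03 against 2.31 and 1.54 and was not called (-1.37 ± 0.63), but was called with the replicate number as a block (limma adjusted p = 0.0363).

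Genes above both leaf classes were ranked by the difference in processed signal, and the first 10 were not well above background on either mature-leaf array. In young leaves 9 of them were not so on either array, and AT5G64110 was on 1. Their order is therefore not an order of measured gaps, and lower bounds are given. Both comparisons share the aerial arrays. CYP78A5 (AT1G13710), a cytochrome P450 that promotes organ growth, stood at -1.75 and -1.66 in the aerial part, at -8.64 and -8.70 in mature leaves and at -9.24 and -9.14 in young leaves. CDEF1 (AT4G30140), a cutinase, stood at -0.59 and -0.82 against -8.47 and -8.53, at least 52.1-fold higher, and was at -8.62 and -8.99 in young leaves. GASA5 (AT3G02885), a gibberellin-regulated peptide gene, was at least 23.7-fold higher than in mature leaves, the osmotin-like OSM34 (AT4G11650) at least 25.6-fold and the transporter gene UMAMIT36 (AT1G70260) at least 43.1-fold. The other 5 were AT4G22505, AT3G05727, AT2G38380, AT5G64110 and AT4G22517, with bounds from 38.6-fold to 68.1-fold.

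Gaps below both leaf classes were smaller. The largest was that of AT3G55310, at -8.59 and -7.13 in the aerial part, where it was not well above background, against -4.50 and -4.91 in mature and -6.36 and -5.98 in young leaves. The next, in order of the gap to the lower leaf class, were AT5G24480, KCS13 (AT2G46720), SBP3 (AT3G23800) and CLE13. Their differences from mature leaves were -0.63 ± 0.12, -0.55 ± 0.12, -0.63 ± 0.10 and -0.48 ± 0.12, all positive with spike-in scaling. The call of KCS13 was lost without aerial replicate 1 (differences from -0.60 to -0.50), and that of CLE13 without aerial replicate 1 or mature-leaf replicate 1 (differences from -0.57 to -0.40).

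The 10 largest falls among genes measured on all 4 arrays were smaller than the rises. AZG2 (AT5G50300), a purine transporter, stood at -6.24 and -6.15 against -3.46 and -3.61 (-2.66 ± 0.09). CYP81D11 (AT3G28740), a cytochrome P450 of stress responses, stood at -1.18 and -1.38 against 1.50 and 0.89 (-2.47 ± 0.22). AT1G64360, bright in both tissues, stood at 1.35 and 1.42 against 3.78 and 3.75 (-2.38 ± 0.06). MAM3, described with the glucosinolate genes, was the fourth largest. The other 6 were AT1G54575, AT5G39520, AT5G46874, AT5G46871, AT3G27970 and AT3G28540, with differences from -2.48 to -2.33. All 10 were called lower in young leaves than in the aerial part. AZG2, MAM3, AT5G39520, AT5G46874 and AT5G46871 were not well above background on either young-leaf array and AT1G54575 was on 1, and the 4 measured on both young-leaf arrays differed by between 1.44 and 4.38.

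Root genes were checked because the aerial part should hold none. Of 11 root markers, 9 were tested and 3 were measured in either tissue. The root-hair genes EXPA7, EXPA18, COBL9, LRX1, RHD6 and RSL4 were not well above background on any of the 4 arrays. The brightest of the 3 measured markers in both tissues was PYK10 (AT3G09260), a beta-glucosidase of endoplasmic reticulum bodies known from roots and seedlings. It stood at 3.23 and 2.93 in the aerial part, at -1.18 and -1.34 in mature leaves and at -1.48 and -1.98 in young leaves, a difference of 4.34 ± 0.19 (limma adjusted p = 1.89e-05). The summed linear level of the 9 tested root markers was 9.45 and 7.7 of the 75th percentile signal on the aerial arrays and 0.564 and 0.503 on the mature-leaf arrays, nearly all of the first pair of sums being PYK10. Without PYK10 the sums were 0.0987 and 0.0836 on the aerial arrays and 0.123 and 0.108 on the mature-leaf arrays. Of the other measured markers, the proton pump gene AHA7 (AT3G60330) stood at -5.13 and -5.07 against -5.67 and -6.31 (0.89 ± 0.29) and FRO2 (AT1G01580), a ferric reductase, at -4.42 and -4.84 against -3.64 and -3.71 (-0.96 ± 0.21). The call of AHA7 was lost with the replicate number as a block (limma adjusted p = 0.0549), without either aerial replicate and without mature-leaf replicate 2 (differences from 0.57 to 1.22), its difference was -0.27 with normexp, and the call of FRO2 was lost without aerial replicate 2 (differences from -1.17 to -0.75).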

How the data were processed

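Per the labels' protocols, 500 ng of total RNA per sample was amplified from an oligo(dT) primer and labelled with Cy3. The array design was Agilent 021169, with probes annotated to build TAIR10, and spots were quantified with Feature Extraction 10.10.1.1, per the file headers. Values in the deposited scanner files are intensity on a linear scale, background-subtracted within an array by that software and not scaled between arrays. The deposited value table also holds intensity, equal within each array to the processed signal times 1 factor of unstated basis, and served as an alternative.

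Spots flagged as outliers, 5 to 13 on an array, were dropped; none was saturated. The log2 processed signal was centred on each array's 75th percentile. Of 43603 probes, 34374 had 1 locus; probes well above background in both replicates of 1 or more of the 4 groups were kept, and the brightest stood for its locus. This gave 20617 genes from 25414 loci. All 8 arrays were fitted with limma 3.58.1 in R 4.3.3, with 4 residual and 1.90 prior degrees of freedom, and p-values were adjusted over all genes by Benjamini-Hochberg. The fit was also run on simulated data with normal noise of the fitted spread. These held no slide effect and no background floor, so errors from either were not measured. A gene was called at an adjusted p under 0.05, and 6 genes were fitted with an array missing in 1 of the 2 groups. Replicates correlated at 0.995 (aerial part) and 0.994 (mature leaves), and 72.2% and 71.9% of aerial spots and 66.6% of spots on both mature-leaf arrays were well above background. With 2 arrays per group, precision is limited by their number, and p-values measure the spread between these samples, pooled over all 8 arrays.

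The comparison, the 36 gene lists (544 members, of which 529 were tested and 511 measured, with 27 matched by locus alone) and the alternatives were chosen with earlier results of these data known. Genes were named by rule: the 10 largest rises and falls among genes measured on all 4 arrays, the 5 largest bounds in each direction, up to 4 called members of each list, the genes furthest above (10) or below (5) both leaf classes, all members of lists of 12 or fewer, and a fixed set of markers. The alternatives were another background correction, 3 other scalings, 3 other filters, the mean over probes, the value table, the 4 compared arrays alone, a variance trend, the replicate number as a term, and leaving out each array. The files hold no mean spot signal, so normexp (offset 50) used the median spot signal and median local background. No sequences or coordinates are printed.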

Additional observations from a re-analysis of the deposited data

How the results depend on the processing

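The counts of genes called higher and lower (6486 and 5940; 3292 and 925 at 2-fold) moved most with the scaling. Spike-in scaling gave 14959 higher and 461 lower, and 7408 and 91 at 2-fold. Median scaling gave 4182 and 11002, with 2605 at least 2-fold lower. With normexp, 9137 genes were lower, 1236 at least 2-fold higher and 532 at least 2-fold lower. Requiring all 4 arrays above background left 1992 genes at least 2-fold higher. The other filters, quantile normalization, the mean over probes, the value table, the 4 arrays alone and the variance trend kept all 4 counts within 1.5 times. Without 1 array, the higher count ran from 5402 to 5848, the lower from 4187 to 4855, the 2-fold higher from 3202 to 3307 and the 2-fold lower from 727 to 1074. The count of genes called between the aerial part and young leaves, 7748, was 4328 without aerial replicate 1, 4971 without aerial replicate 2 and 7592 without either mature-leaf array. The slide as a block could not be fitted, since neither slide holds arrays of both groups, and was not run.

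Of the genes named, these turned sign with spike-in scaling: SEP3 (0.68), RSL4 (0.18), LAS (0.66), CLV2 (0.68), RBCS1A (0.47), CLE13 (0.28), CLV1 (0.44), SEP4 (0.0589), SOC1 (0.0768), KCS13 (0.21), SBP3 (0.14), FAMA (0.62), PNY (0.34), PRR7 (0.25), AT5G24480 (0.13), TTG1 (0.15) and KAT1 (0.32). Those that turned with normexp were EXPA7 (-0.60), DRN (-0.55), RHD6 (-0.55), CRC (-0.27), WUS (-0.53), CUC1 (-0.36), AHA7 (-0.27) and COBL9 (-0.60). With median scaling MYB60 turned to -0.29, RBCS1A turned with quantile normalization (0.19) and with the mean over probes (0.0881), and EXPA7 ran from -0.59 to 0.84 without 1 array. Of these, CLV1, CLV2, LAS, SEP3, FAMA, MYB60, DRN, EXPA7 and COBL9 were not called at first. The cause was not tested beyond the shifts of the all-gene median given above.

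The replicate number of the labels as a block gave 6654 higher and 6242 lower genes. Deviations of same-numbered replicates from their group means correlated at 0.31 between the aerial part and mature leaves, 0.35 between the aerial part and young leaves and 0.25 between the leaf classes, which with 2 numbers does not settle whether the numbers pair the samples. The block took the call from AHA7 and gave one to CCA1 and CLV1 among the genes named.

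The dimmest genes are limited by background: 1398 tested genes were measured in neither tissue and hold 197 higher and 396 lower calls, and folds against an unmeasured level are bounds.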

Other observations

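The aerial part lay between both leaf classes in overall distance. The median absolute log2 difference over the measured genes was 0.28 between the aerial part and young leaves, 0.44 between the aerial part and mature leaves and 0.65 between young and mature leaves. These comparisons share arrays, and young and mature leaves were on 1 slide while the aerial part was on another. Of all genes tested, 4106 (19.9%) were higher and 3642 (17.7%) lower in the aerial part than in young leaves.

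Probes that carry no locus in the annotation used were fitted separately. Of 4594 such probes tested, 953 were higher and 1014 lower in the aerial part than in mature leaves. Of the 3840 called genes with another tested probe, 50 had one called in the opposite direction.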
